A study of Mus musculus with 7 samples.

Results

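The wild-type pancreas of the E15.5 mouse embryo is described here from 4 of the 7 libraries of the series. They are the 4 columns of the deposited count table that carry the WT label, and the 3 cKO libraries were not used. WT embryos carried floxed alleles of 2610035D17Rik (mLINC00673fl/fl), the counterpart in mouse of LINC00673, a long non-coding RNA, and no Cre, so the floxed gene was not recombined. Each library came from an independent animal. Polyadenylated RNA was sequenced without a step that keeps the strand, so reads of overlapping genes on opposite strands cannot be told apart. A wild type without floxed alleles was not analysed here, and the sources used here do not say whether the embryos were littermates.

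At this stage the mouse pancreas is in its secondary transition. The epithelium, marked earlier by Pdx1 and Ptf1a, has split into tips, which become acinar cells that make digestive enzymes, and a trunk, which gives duct cells and, through Neurog3, hormone cells. Acinar cells build a large endoplasmic reticulum and pack enzyme precursors into zymogen granules. The epithelium grows inside mesenchyme, with vessels, blood cells, nerves and a mesothelial surface, and a dissected organ can carry neighbouring tissue.

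The 4 libraries held 14883918 to 17767373 counts, and no pair of them agreed within sampling error, with a chi-square statistic over genes of 16.03 to 33.57 for each degree of freedom. Mitochondrially encoded genes took 1.47% to 2.58% of the counts (2.09% ± 0.484, SD, n = 4) and coding genes 94.5% to 95.6%. The names of the count columns hold the number 6 for replicates 1 to 3 and the number 7 for replicate 4. The labels do not say what that number means, so whatever sets replicate 4 apart cannot be told apart from it. Levels are compared between genes as TPM, which are counts divided by exon length and scaled to the same sum in each library. Libraries are compared as CPM, counts scaled to library size with TMM, which allows for a few dominant genes. There is 1 group and no contrast, so no groups were tested against each other and the values are descriptions.

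The markers of pancreatic epithelium were present in all 4 libraries. Mean TPM was 9120 ± 2254 (SD, n = 4) for Cpa1, 104 ± 7.19 for Ptf1a, 107 ± 7.84 for Neurog3, 103 ± 10.5 for Nkx6-1, 95.7 ± 11.1 for Pdx1 and 66.3 ± 10.6 for Sox9. Exons of other genes cover 40.4% of the exon bases of Ptf1a and 16.3% of those of Neurog3. How reads over such bases were counted is not stated, so the levels of these genes are uncertain. Epcam and Cdh1, which join epithelial cells, stood at 530 and 446 TPM. Epithelial genes of neighbouring gut were near the lower end. Muc5ac of stomach was at 0 counts in every library, Gkn1 at a mean of 0.10 TPM, and Cdx2 of intestine at 0.47 TPM. Tff2 (30.4 TPM) and Vil1 (18.1 TPM) were the highest members of the stomach and intestine lists.

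Of 26780 genes with a known exon length, 14774 (55.2%) reached 1 TPM in every library, and 12995 of these were coding genes. The 55.2% counts non-coding genes too. Of 11587 coding genes whose exons overlap no other gene, 72.4% reached that level, a closer background for lists of coding genes. At 10 TPM or more 8758 genes remained, at 100 TPM or more 1194, at 1000 TPM or more 81 and at 10000 TPM or more 4. Transcripts were concentrated in few genes: 2 genes held 10% of all transcripts, 24 held 25%, 335 held 50%, 2139 held 75% and 5619 held 90%. The second of them by rank, Gm23935, is a gene model of 57 bases annotated as a miRNA. It stood at 8101, 51122, 62303 and 38227 TPM, low in replicate 1, although its mean was 818 CPM, because a short model raises a level per length. Among the 100 leading genes were 35 cytosolic ribosomal proteins, 12 digestive enzymes, 11 pseudogenes, 7 mitochondrially encoded genes, 5 translation factors, 2 collagens and 2 globins. No transcription factor was among them.

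**Figure D1:**
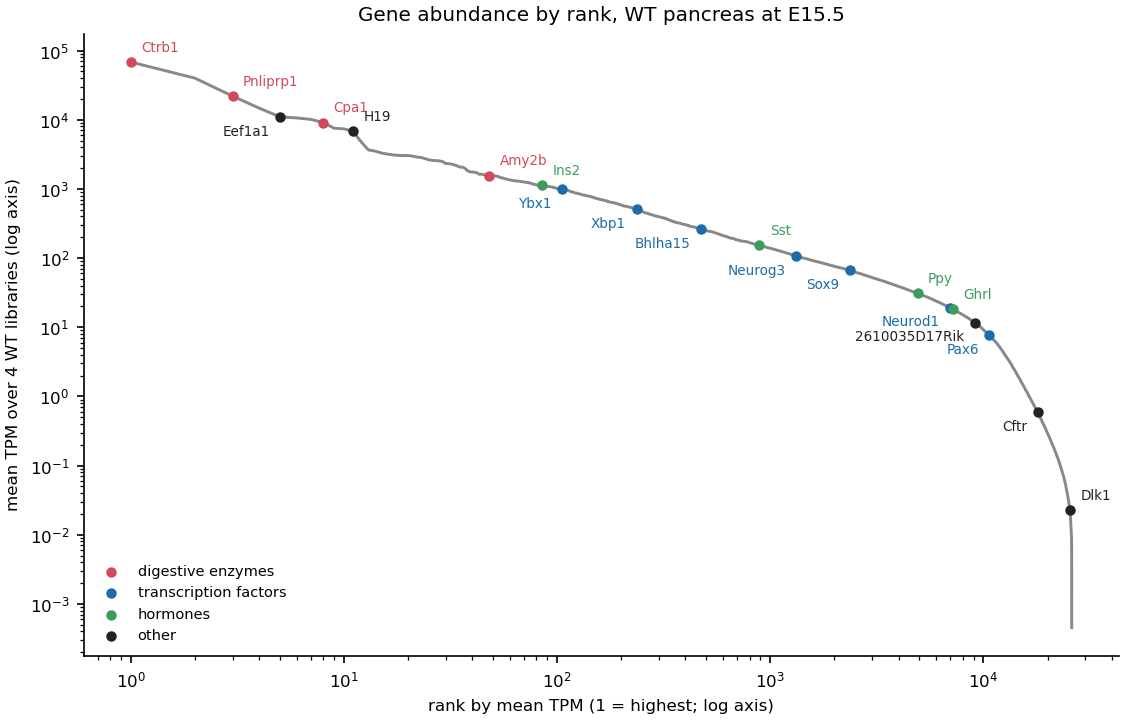
Mean TPM over the 4 WT libraries (log axis) against rank (log axis) for every gene with a count, with named genes as points coloured by kind. Ctrb1 leads at 68378 TPM, the leading transcription factor Ybx1 lies at rank 106 and 2610035D17Rik at rank 9117.

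One digestive enzyme gene led the whole transcriptome. Ctrb1, chymotrypsinogen B, stood at 56818, 58296, 58485 and 99913 TPM in replicates 1 to 4, a mean of 68378 ± 21037 and 6.84% of all transcripts. Replicates 1 to 3 lay close together and replicate 4 stood above them. Pnliprp1, a pancreatic lipase-related protein, followed with 22075, 18278, 18529 and 29258 TPM. Colipase (Clps) had 9393, 8184, 8686 and 16285 TPM, and carboxypeptidase A1 (Cpa1) 8260, 8117, 7625 and 12477 TPM. In both, replicate 4 was again the highest and the other libraries were within a narrow range.

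The enzyme genes did not form 1 block of high levels. All 38 members of the list of digestive enzymes and granule proteins reached 1 TPM in every library, with a median of 382 TPM. Of all genes 55.2% reached that level, and of coding genes without overlap 72.4%. Cel (2286 TPM), Prss1 (1984 TPM) and Amy2b (1558 TPM) were also high, as were the elastases Cela3b, Cela2a and Cela1 at 1071 to 1316 TPM, though with the length of its longest transcript Cela1 stood at 1765 TPM. At the other end stood Pnlip, the classical pancreatic triglyceride lipase, at 2.57, 2.02, 2.85 and 1.353 TPM. Cuzd1 (2.41 TPM), Pla2g1b (2.64 TPM), Cela3a (5.27 TPM) and Gp2, a granule membrane protein (5.32 TPM), were also low. Pnliprp1 and Pnlip, which encode related proteins, thus stood at opposite ends of the list in the same libraries. The trypsinogens (Prss1, Prss2, Prss3, Try4, Try5, Try10) and the amylases are close copies of each other, and the sources used here do not say how reads that match several of them were divided, so their separate levels are uncertain.

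Some promoters of enzyme genes held the letters TATAAA, which were rare over all promoters. The sequences below are the 70 bases before the RefSeq start of 6 enzyme genes, from GRCm38.p6, written 5′ to 3′ on the gene's own strand. They are shown to set 3 of the 4 leading enzyme genes, which lack the letters TATAAA there, beside 3 enzyme genes that hold them, and TATAAA is in capitals where it starts 40 to 20 bases before the start.
Ctrb1, chr8:111691211-111691280, minus strand: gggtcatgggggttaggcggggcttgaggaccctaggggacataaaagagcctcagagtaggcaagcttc
Pnliprp1, chr19:58728817-58728886, plus strand: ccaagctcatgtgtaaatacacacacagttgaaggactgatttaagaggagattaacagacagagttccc
Cpa1, chr6:30639148-30639217, plus strand: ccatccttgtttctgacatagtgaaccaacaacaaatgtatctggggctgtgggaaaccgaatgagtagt
Prss1, chr6:41458860-41458929, plus strand: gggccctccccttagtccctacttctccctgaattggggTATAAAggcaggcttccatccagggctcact
Amy2b, chr3:113156928-113156997, minus strand: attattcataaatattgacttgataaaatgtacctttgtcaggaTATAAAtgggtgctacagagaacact
Cela1, chr15:100688121-100688190, minus strand: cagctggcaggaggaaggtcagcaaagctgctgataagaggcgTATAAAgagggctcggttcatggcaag

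TATAAA on the gene's own strand in that window was found in 8 of the 21 enzyme promoters in the RefSeq table (38.1%), against 1.11% of the 10677 promoters of genes at 10 CPM or more and 1.77% of all promoters. CACCTG on either strand, within 250 bases before to 50 after the start, was found in 66.7% of enzyme promoters against 17.5% of those of genes at 10 CPM or more. TTTCCCA on either strand was found in 28.6% against 7.202%. CACCTG is 1 form of the E-box bound by basic helix-loop-helix factors, and both it and TTTCCCA resemble portions of the site known for the PTF1 complex of Ptf1a and Rbpjl. The median GC content was 45.7% in enzyme promoters against 61.7%, and the ratio of observed to expected CpG 0.146 against 0.773. Ctrb1, Pnliprp1 and Cpa1 had no TATAAA in the window, and the highest of 10 TPM classes of genes at 10 CPM or more held it in 2.81% of promoters. Paralogous enzymes share promoter sequence and are not independent, and a match of letters is not a binding site. The 14 promoters of neuronal genes held TATAAA in 14.3% and CACCTG in 28.6%.

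Around these enzymes stood the machinery of translation and secretion. Eef1a1, which brings aminoacyl-tRNA to the ribosome, was at rank 5 with 11040 ± 743 TPM, and Eef2, which moves the ribosome along, stood at 3189 ± 231 TPM. Rplp1 of the ribosomal stalk was at 7542 ± 254 TPM. The 22 genes of endoplasmic reticulum folding had a median of 248 TPM, led by the disulfide isomerase P4hb (2065 TPM), calreticulin (Calr, 1297 TPM) and Pdia3 (1074 TPM). The stress effectors Ddit3 (12.5 TPM) and Trib3 (3.6 TPM) were the lowest of that list.

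The mitochondrial genes mt-Co1, mt-Cytb and mt-Nd1 held ranks 4, 7 and 10, and H19 and Serpina6 followed the first 10 genes. H19, an imprinted long non-coding RNA of embryonic tissues, was at rank 11 with 6869, 6961, 7233 and 6307 TPM. Serpina6, the corticosteroid-binding globulin best known from liver, was at rank 12 with 5039, 4936, 4482 and 4989 TPM. On the CPM scale they ranged 1.16-fold and 1.30-fold between libraries. For comparison, Actb stood at 1584 ± 147 TPM.

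Transcription factors were many and low. Of 1184 genes matched as factors by their names, 904 (76.4%) reached 1 TPM in every library, 433 reached 10 TPM and 20 reached 100 TPM. Of all genes 55.2% reached 1 TPM. The factors are all coding genes, and of coding genes without overlap 72.4% did, so the share of factors is near that background. Their median among those at 1 TPM was 11.9 TPM, against 17.5 TPM for all such genes. Together they made up 2.46%, 2.20%, 2.26% and 1.91% of transcripts (2.21% ± 0.229, SD, n = 4), less than Ctrb1 alone. Families differed in how many members were on. C2H2 zinc fingers reached 1 TPM in every library in 478 of 554 cases (86.3%) and basic leucine zipper factors in 46 of 52 (88.5%). Homeodomain factors did so in 81 of 170 (47.6%) and forkhead factors in 21 of 38 (55.3%).

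The leading factors mixed general and pancreatic genes. Ybx1, a cold-shock protein that binds RNA as well as DNA, led at 984 ± 82.1 TPM. Xbp1, which drives expansion of the secretory pathway, came next with 513, 502, 487 and 521 TPM. The acinar factor Bhlha15 (Mist1) stood at 264 ± 13.7 TPM, and Rbpjl, the acinar partner of Ptf1a, followed it directly at 259 ± 109 TPM. Atf4, the imprinted genes Peg3 and Plagl1, and Tcf3, a common partner of basic helix-loop-helix factors, were among the first 10 together with Maz and Ybx3. Id1, Id2 and Id3, which bind such partners but lack the DNA-binding part, stood at 151, 143 and 134 TPM. Gata4, Neurog3, Ptf1a and Nkx6-1 were among the 30 leading factors, at 103 to 118 TPM. The places of Ptf1a and Neurog3 are uncertain because exons of other genes overlap theirs. Zfp36l1 and Zfp36l2, also among the 30, encode RNA-binding proteins and were matched by their symbols only.

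**Figure D2:**
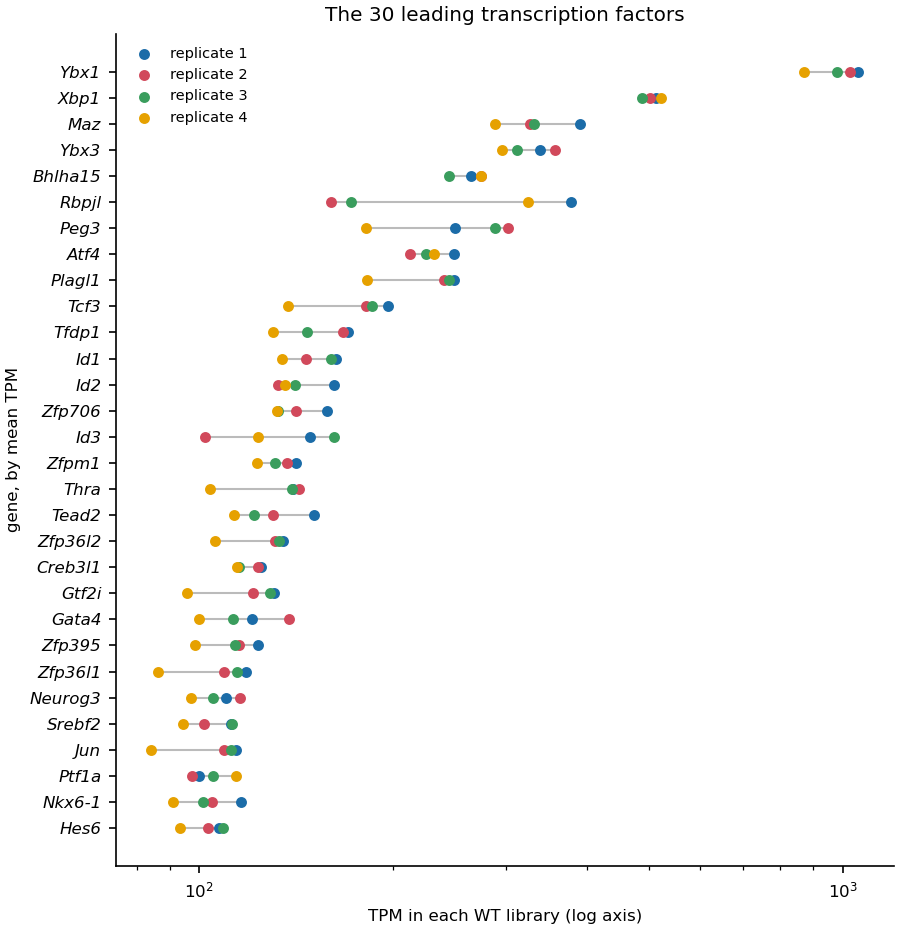
TPM in each of the 4 WT libraries (log axis) for the 30 transcription factors with the highest mean TPM, with a colour for each replicate and a grey line from the lowest to the highest library. Rbpjl has the widest line, with replicates 2 and 3 at 161 and 172 TPM and replicates 1 and 4 at 378 and 324 TPM.

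Rbpjl was the exception to the steadiness of these factors. On the CPM scale it stood at 690, 322, 341 and 748 in replicates 1 to 4, 2.32-fold between the highest and the lowest. Replicates 1 and 4 were high and replicates 2 and 3 low, an order that neither Ptf1a (48.1, 51.6, 54.8 and 69.2 CPM) nor Bhlha15 (294, 335, 295 and 385 CPM) shared. In both of those, replicate 4 was the highest.

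Progenitor and trunk factors were expressed at moderate level. Below Nkx6-1 and Pdx1 came Foxa2 (88.9 TPM), the Notch target Hes1 (84.0 TPM), Sox9, Nkx2-2 (51.3 TPM), Foxa3 (47.2 TPM), Hnf4a (43.3 TPM), Gata6 (42.4 TPM) and, lower, Onecut1 (21.5 TPM). Of the 20 members, 18 reached 1 TPM in every library, where 55.2% of all genes and 72.4% of coding genes without overlap did. Foxa1 (0.30 TPM) was the lowest, far under its relatives Foxa2 and Foxa3. None of the 15 members at 10 CPM or more had its highest library at 2 times the lowest or above, where 4.06% of all genes at that level did, so that with 15 genes the count is near the background. Their median SD of log2 CPM was 0.14, against 0.13 for all genes. Nkx6-1 lay between 110 and 116 CPM in every library.

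Hox genes gave a positional profile. Members of paralogous groups 1 to 9 were present, with Hoxa5 (28.3 TPM, range 24.7 to 29.8) and Hoxb4 (12.5 TPM, range 12.3 to 13.0) the highest. Of the 9 genes of groups 10 to 13, 0 reached 1 TPM in every library. Among those of groups 8 and 9, Hoxc8 ranged from 0.06 to 6.80 TPM and Hoxc9 from 0 to 7.66 TPM.

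Duct and surface genes of the epithelium were high and those of mature duct function low. Krt8 stood at 943, 965, 832 and 910 TPM, Spp1 (osteopontin) at 730 ± 103 TPM, Krt18 at 695 TPM and Krt19 at 103 TPM. Krt8 and Krt18, keratins of all simple epithelia, were therefore several times above Krt19, the duct keratin. Cftr, the chloride channel of duct cells, stood at 0.79, 0.50, 0.54 and 0.52 TPM.

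Hormone genes spanned the islet cell types in an uneven order. Ins2 stood at 1110, 1005, 955 and 1470 TPM and Gcg at 1043, 1177, 907 and 847 TPM. Their ranges overlapped, so the 2 did not differ in order beyond their spread. Ins1 followed at 653 ± 148.5 TPM, the gut-islet peptide Pyy at 595 ± 89.8 TPM, Iapp at 283 ± 27.8 TPM and Sst at 153 ± 26.3 TPM. Ppy was at 30.8 ± 6.01 TPM and Ghrl at 18.2 ± 1.84 TPM, and these 2 did not overlap with each other or with Sst. Both insulin genes were highest in replicate 4 on both scales. Gcg was lowest there in TPM but not in CPM, where it stood at 496, 615.5, 468 and 509.

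The genes that mark beta cell maturity were far below Ins1 and Ins2. Mafa, a transcription factor, stood at 24.1 TPM, which was not low beside the endocrine factors Fev, Neurod1 and Pax4 given below. The glucose transporter Slc2a2 stood at 14.9 TPM, and Glp1r and Ucn3, a late maturity marker, at 0.81 and 0.37 TPM. All 21 endocrine commitment genes reached 1 TPM in every library, where 55.2% of all genes and 72.4% of coding genes without overlap did. Neurog3 (110, 116, 105 and 97.2 TPM) led the factors of that list, with Insm1 at 60.3 TPM, Isl1 at 37.2 TPM, Fev at 23.7 TPM, Neurod1 at 19.2 TPM and Pax4 at 13.4 TPM. Isl1 was also a member of the mesenchyme list. It stood at 69.3, 35.8, 54.2 and 45.0 CPM in replicates 1 to 4, the order of the nerve genes given below. Its level therefore cannot be assigned to endocrine cells alone.

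Other cells of the organ were visible in every library. In bulk RNA, fewer cells of a type and less RNA per cell cannot be told apart. Of mesenchyme, Col1a1 stood at 1526 ± 222 TPM, Col3a1 at 1008 ± 148 TPM and Vim at 428 ± 86.3 TPM, and the spleno-pancreatic factors Barx1 (45.9 TPM) and Nkx3-2 (15.0 TPM) were present. The endothelial cadherin Cdh5 was at 114 ± 16.4 TPM. All 15 endothelial genes reached 1 TPM in every library, where 55.2% of all genes and 72.4% of coding genes without overlap did. C1qa of macrophages was at 247 ± 64.5 TPM, and Upk3b of mesothelium at 54.1 TPM. Of globins, the fetal and adult genes Hba-a1 (2491 ± 650 TPM) and Hbb-bs (2153 ± 611 TPM) were far above the embryonic Hbb-y (75.9 TPM), Hba-x (9.77 TPM) and Hbb-bh1 (0.98 TPM).

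Among secreted signals, the heparin-binding growth factors Mdk (547 TPM) and Ptn (488 TPM) led the list of ligands, well above Bmp7 (101 TPM), Cxcl12 (97.3 TPM), Igf1 (94.1 TPM) and Vegfa (66.5 TPM). Fgf10, the mesenchymal signal that sustains pancreatic progenitors early in development, was at 3.97 TPM and Ihh at 0.17 TPM. None of the 27 ligands at 10 CPM or more reached 2-fold between libraries, a count near the background of 4.06%, and their median SD of log2 CPM was 0.18 against 0.13 for all genes.

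The floxed long non-coding RNA itself was low and even between libraries. 2610035D17Rik had 168, 147, 137 and 125 counts, or 9.13, 8.77, 7.99 and 8.79 CPM (8.67 ± 0.482, SD, n = 4). Per length it stood at 11.6 ± 1.404 TPM, at rank 9117 of all genes. Its neighbour on the chromosome, Sox9, was at 106, 99.2, 79.9 and 101 CPM.

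Most genes were steady between the 4 embryos. Over 10721 genes with a mean of at least 10 CPM, the median coefficient of variation was 9.26%, and 5918 (55.2%) stayed within 1.25-fold from the lowest to the highest library. The common biological coefficient of variation was 0.182. A gene was called widely spread where the highest library was at least 2 times the lowest: 435 genes (4.06%) were, 204 of them past 3-fold and 51 past 10-fold. Without replicate 2 the count was 241. At the other end, Aco1, the cytosolic aconitase, stood at 119.6, 119.0, 118.8 and 119.0 CPM. Actr1b, Cdc16, Mdh2, Xpo6, Tsnax, Dlst, Traf7 and Banf1 were among the next lowest in spread above 100 CPM. Their coefficients of variation were 0.708% to 0.964%. Counting error alone gave a median of 2.07% for genes at 100 to 300 CPM, above all of these. Such values are the low end of a ranking and do not show that these genes vary less than others.

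**Figure D3:**
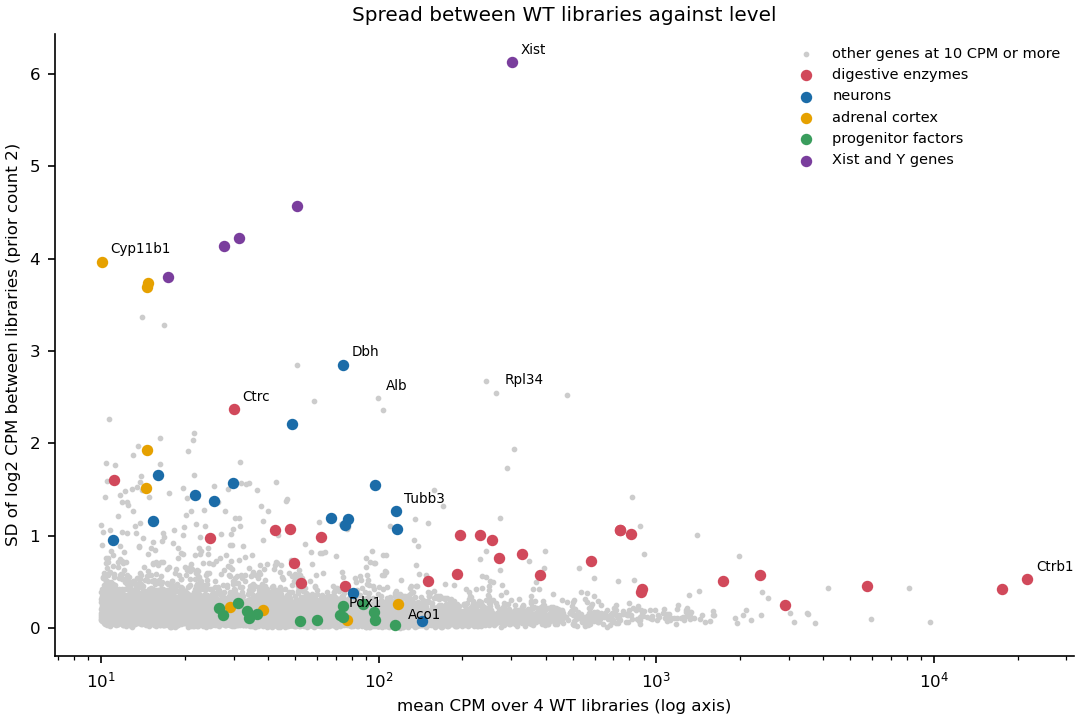
SD of log2 CPM between the 4 WT libraries (prior count of 2) against mean CPM (log axis) for genes at 10 CPM or more, with 5 gene lists in colour. Progenitor factors lie within the bulk of genes, digestive enzymes above the bulk at every level, and Xist, the Y genes, adrenal genes and neuronal genes at the top.

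Spread was not divided evenly over the gene lists or over the libraries. Of 29 digestive enzyme and granule genes at 10 CPM or more, 24 were widely spread, as were 14 of 16 neuronal genes and 7 of 8 erythroid genes, against 4.06% of all genes. Zg16, among the 24, reached a mean of 10 CPM only through replicate 4. None was among 15 progenitor and trunk factors, 30 collagens, 23 genes of S phase and mitosis, 20 genes of endoplasmic reticulum folding, 17 translation factors or 14 immediate early genes, counts that for lists of these sizes are near that background, and scaling to library totals put 2 collagens past 2-fold. With replicate 4 left out, 4 of the 29 digestive genes were still widely spread, and with replicate 2 left out 10 of the 16 neuronal genes were. Of the 8 erythroid genes 3 were without replicate 1 and 4 without replicate 4. Of the 435 genes, replicate 2 was the lowest in 281 (64.6%) and replicate 1 the highest in 198 (45.5%). The order replicate 1, 3, 4, 2 from high to low held in 164 of the 435 (37.7%), against 7.14% of all 10721 genes.

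Digestive enzymes set replicate 4 apart. Their share of the counts was 4.93%, 4.73% and 4.796% in replicates 1 to 3 and 8.99% in replicate 4. Of 29 genes, 28 were highest there, or 27 with library totals. Zg16 reached a mean of 10 CPM only through replicate 4, so its place in these counts was set by that filter. The size of that gap differed between enzymes. Pnliprp1 was 1.84-fold from lowest to highest library, whereas Cela3b stood at 503, 389, 499.5 and 1864 CPM and Cpb1, carboxypeptidase B1, at 538, 294, 462 and 1668 CPM. Sycn, syncollin of the granule membrane, stood at 42.1, 31.9, 34.9 and 140 CPM, and Zg16, another granule protein, at 5.92, 2.56, 3.50 and 32.4 CPM.

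A pair of genes of that list went their own way. Ctrc, chymotrypsin C, stood at 2.66, 53.1, 60.5 and 3.94 CPM, low in replicates 1 and 4 and high in replicates 2 and 3, a 22.7-fold range. It was the 1 member of the 29 that was not highest in replicate 4. The libraries low in Ctrc were those high in Rbpjl. Serpini2, a serine protease inhibitor of acinar cells, stood at 295, 242, 71.0 and 317 CPM, so that replicate 3 alone was low.

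On the CPM scale, replicate 4 was also the highest in most ribosomal, endoplasmic reticulum folding and mitochondrially encoded genes. It was the highest in 69 of 78 ribosomal protein genes, in 19 of 20 endoplasmic reticulum folding genes and in 11 of 12 mitochondrially encoded genes, where it was the highest in 23.9% of all genes at 10 CPM or more. Widely spread were 8 (10.3%), 0 and 4 (33.3%) of them, against 4.06% of all genes. Without replicate 3 the count of ribosomal genes was 4, without replicate 4 it was 5, and without replicate 1 or 4 that of mitochondrial genes was 0 or 2. Pdia3 stood at 1153, 1164, 1121 and 1323 CPM. With library totals in place of TMM, replicate 4 was the highest in 62, 18 and 10 of these genes. Summed as TPM, ribosomal genes stood at 96973, 96338, 86176 and 95600 in replicates 1 to 4, so replicate 4 was not the highest. Folding genes summed to 10958, 10297, 9899 and 10990 TPM, with replicate 4 nearly level with replicate 1. Mitochondrial genes summed to 35952, 53164, 44125 and 53238 TPM, with replicate 4 nearly level with replicate 2. Genes of S phase and mitosis went another way, with replicate 2 the highest in 22 of 23 and replicate 4 the lowest in 16, against 32.3% and 31.9% of all genes. Mki67, a marker of cycling cells, stood at 347, 501, 402 and 313 CPM.

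**Figure D4:**
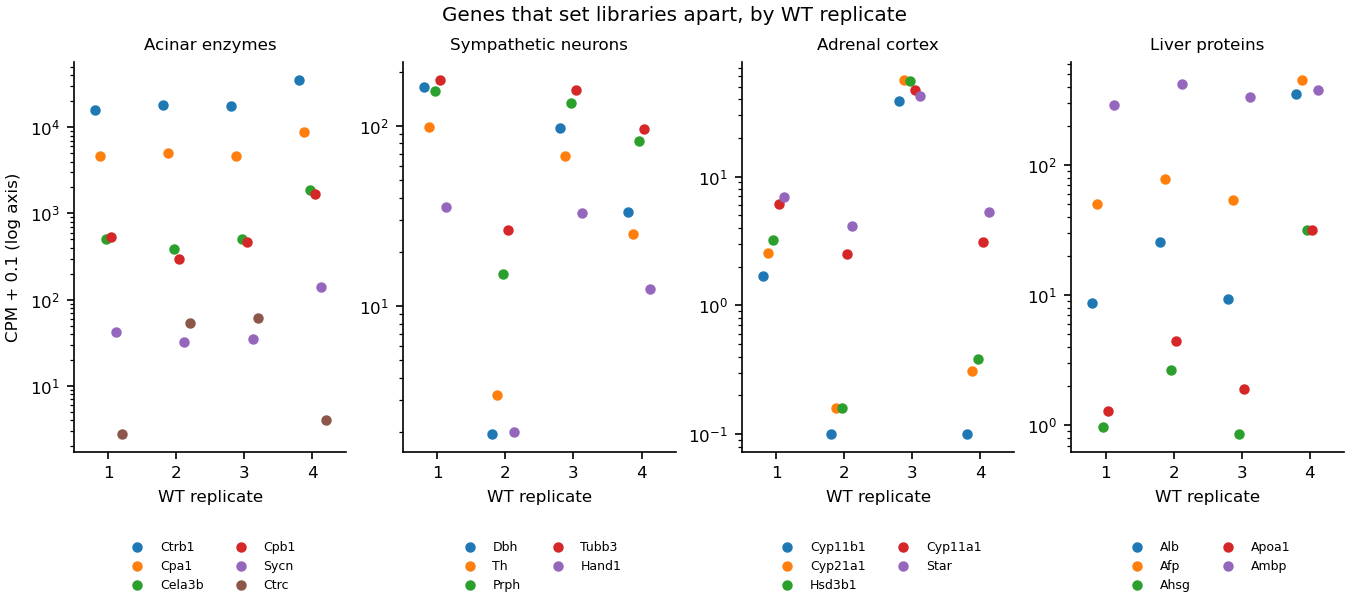
CPM plus 0.1 (log axis) in each WT replicate for genes of 4 kinds, 1 colour per gene. Enzymes other than Ctrc are highest in replicate 4, neuronal genes are lowest in replicate 2, steroid genes are highest in replicate 3, and liver genes other than Ambp are highest in replicate 4.

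Neuronal genes were widely spread too. Dbh, the enzyme that makes noradrenaline, stood at 164, 1.85, 97.9 and 33.3 CPM in replicates 1 to 4, and Th, which starts that pathway, at 98.1, 3.10, 67.7 and 25.2 CPM. The noradrenaline transporter Slc6a2 (81.1, 1.19, 74.4 and 46.8 CPM) and Prph, a filament of peripheral neurons (156, 14.9, 135 and 82.9 CPM), followed the same order. All 16 neuronal genes were highest in replicate 1 (15 of them with DESeq2 size factors) and 15 were lowest in replicate 2. The exception was Ddc, which islet cells and neurons share, and which was even at 149, 149, 139 and 135 CPM. The list took 0.166%, 0.037%, 0.131% and 0.0761% of the counts.

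The most spread transcription factors had the same order of libraries as these nerve genes. Tfap2b stood at 31.3, 0.12, 24.96 and 10.97 CPM, and Hand1 at 35.2, 1.91, 33.0 and 12.4 CPM. Phox2a, Tlx2 and Gata2 shared their order, whereas the less spread Rbpj and Rbpjl did not. Of 644 factors at 10 CPM or more, 17 (2.64%) were widely spread, against 4.06% of all genes, and these were among the most spread of them. The glial gene Sox10 followed with a smaller range, at 25.1, 13.5, 22.4 and 16.7 CPM.

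Replicate 3 alone held clear levels of adrenal cortex enzymes. Cyp11b1, the last step of glucocorticoid synthesis, stood at 1.58, 0, 38.8 and 0 CPM, where a count of 0 allows up to 0.179 CPM in replicate 2 and 0.211 CPM in replicate 4. Cyp21a1 stood at 2.45, 0.06, 56.2 and 0.21 CPM, Hsd3b1 at 3.10, 0.06, 55.0 and 0.28 CPM, and Cyp11a1, the first step of steroid synthesis, at 5.98, 2.39, 47.0 and 3.02 CPM. Replicate 1 was second in each. A list of 14 adrenal cortex genes was drawn up after these values were seen: 9 were at 10 CPM or more, all 9 were highest in replicate 3 (8 with DESeq2 size factors) and 5 were widely spread, and its share of the counts was 0.0580% in replicate 3 and 0.0241% to 0.0268% in the others. Cyp11b1, Cyp21a1, Hsd3b1 and Cyp11a1 reached a mean of 10 CPM only through replicate 3. For these, being highest there and widely spread was set by that filter. The counts describe the list and are no support for the pattern. Pnmt, which makes adrenaline in the adrenal medulla, was at 3.97 CPM in replicate 3 and at 0.33 CPM or less elsewhere. Whether adrenal tissue was carried into that library was not tested.

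Liver and blood genes added to the distance of replicate 4. Alb, serum albumin, stood at 8.64, 25.6, 9.33 and 353 CPM and Afp, its fetal relative, at 46.6, 66.2, 46.1 and 333.5 TPM. Ahsg and Apoa1 were at 31.44 and 31.65 CPM in replicate 4 and at 4.35 CPM or less elsewhere. Ambp (290, 418, 337 and 380 CPM) and Ttr (240, 300, 268 and 323 CPM), which pancreas epithelium and islet cells also express, were within 2-fold. The 20 liver genes took 0.168% of the counts in replicate 4 and 0.0647% to 0.0872% in the others. Hba-a1 was high in replicates 2 and 4 (829 and 1036 CPM) and low in replicates 1 and 3 (475 and 573 CPM), whereas the red cell membrane protein Slc4a1 was high in replicate 4 only (8.26, 16.9, 9.10 and 80.1 CPM). The part of these cells in the spread of the other genes was not tested.

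Sex gave the widest spread of all. Xist stood at 1212 CPM in replicate 2 and at 0.05, 0.12 and 0.28 CPM in replicates 1, 3 and 4. The Y genes Ddx3y (71.0, 66.4 and 65.5 CPM), Eif2s3y, Kdm5d and Uty had counts in those 3 libraries and 0 counts in replicate 2, so the group is 1 XX and 3 XY embryos. Genes that set replicate 2 apart, the neuronal genes among them, cannot be told apart from sex with 1 XX embryo.

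Pseudogenes were more often widely spread than coding genes. Of 184 processed pseudogenes at 10 CPM or more, 28 (15.2%) were widely spread, against 3.50% of coding genes. These shares are not matched for level. Many of the pseudogenes lay at 10 to 30 CPM, where 6.91% of all genes were widely spread. Some reached 10 CPM only through 1 library, so that their spread was set by that filter. Among these were Atp6v0c-ps2 (1.79, 1.13, 37.8 and 1.90 CPM) and Gm6166 (2.83, 3.28, 3.62 and 49.7 CPM). Processed pseudogenes are copies of a messenger RNA set back into the genome, and each of the 28 matched a coding gene at 95% identity or more over at least 80% of its length. A stretch of each of 2 pairs is shown to make plain how little separates a gene from such a copy. The first pair is Rplp0, a protein of the ribosomal stalk, and Gm8730, in bases 358 to 447 of the coding sequence, counted from 1 at its start, from GENCODE M21. The 2 differ at 12 of 951 coding bases, and the capitals mark the mismatches A390G, A393G and A447T.
Rplp0: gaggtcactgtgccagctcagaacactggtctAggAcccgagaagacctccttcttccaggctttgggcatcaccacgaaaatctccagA
Gm8730: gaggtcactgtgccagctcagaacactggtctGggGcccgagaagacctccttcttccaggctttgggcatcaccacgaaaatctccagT
The second pair is Rpl34 of the large ribosomal subunit and Rpl34-ps1, bases 43 to 132, which differ at 2 of 351 coding bases, with T132C in capitals.
Rpl34: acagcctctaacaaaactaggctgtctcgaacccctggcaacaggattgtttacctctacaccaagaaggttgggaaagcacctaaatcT
Rpl34-ps1: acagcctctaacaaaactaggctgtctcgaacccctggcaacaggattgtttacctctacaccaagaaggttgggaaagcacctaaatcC

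In Rplp0, Rpl34 and Rps3a1 the counts of gene and copies were high in different libraries. Rplp0 had 873, 2569, 1648 and 2847 CPM in replicates 1 to 4 and Gm8730 had 1142, 39.5, 676 and 47.3 CPM, so each was high where the other was low. Summed with all matched copies the range fell from 3.26-fold to 1.34-fold. Rpl34 stood at 255, 493, 10.1 and 302 CPM and Rpl34-ps1 at 280, 34.7, 509 and 332 CPM, and the sum went from 48.6-fold to 1.22-fold. Rps3a1 with its copies went from 5.86-fold to 1.245-fold. The Notch effector Rbpj, at 31.7, 80.8, 31.4 and 28.2 CPM, had its copy Rbpj-ps3 at 18.4, 1.97, 18.7 and 14.6 CPM, and the sum was still 1.94-fold apart with replicate 2 the highest.

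**Figure D5:**
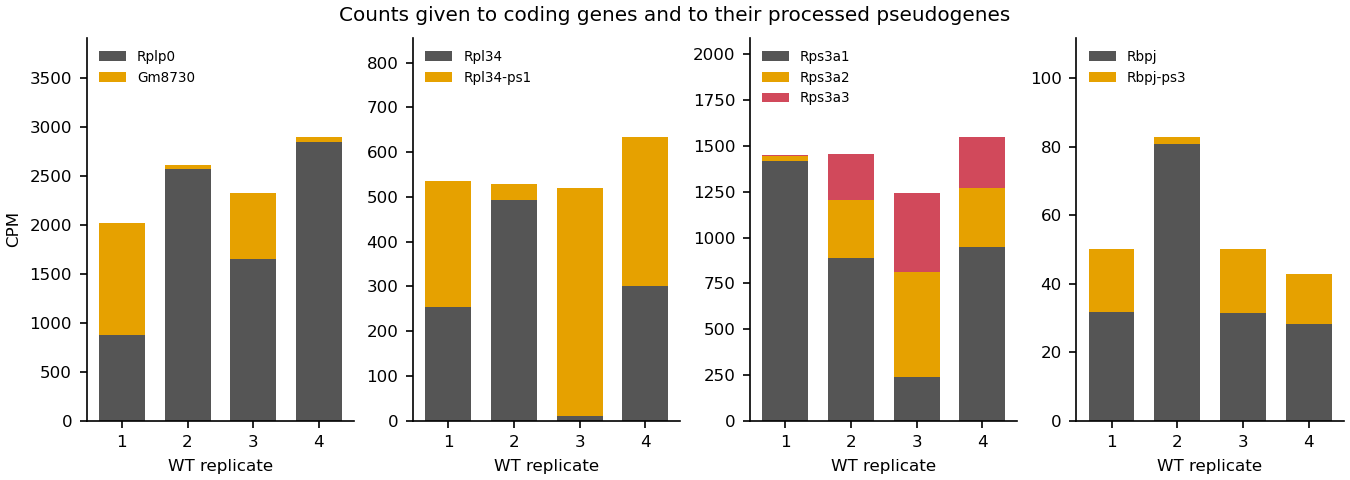
CPM in each WT replicate given to 4 coding genes (grey) and stacked on them the CPM given to their processed pseudogenes (colours). The stacks of Rplp0, Rpl34 and Rps3a1 are far more even than their grey parts, and that of Rbpj stays highest in replicate 2.

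Of 28 coding genes that had a widely spread copy or were widely spread themselves, the sum was within 2-fold in 23. In 13 the coding gene itself was widely spread, and in 9 of these the sum was not. In the rest the coding gene was already within 2-fold and often far above its copy. A sum within 2-fold says little there. Rps18, Rps27a and Rpl21 stayed past 2-fold after summing. Eno1b and its copy Gm4735 were both high in replicate 3, and the range went from 2.82-fold for Eno1b to 4.15-fold for the sum. Gm10073 went from 1.77-fold to 2.19-fold. Reads assigned to the one or the other copy by few bases cannot be told from a difference between embryos in these counts, so the 8 widely spread ribosomal protein genes are uncertain.

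Some genes known for high expression were listed near 0. Gapdh, a textbook housekeeping gene, stood at 9.17, 5.52, 4.82 and 4.44 TPM, where the other glycolysis enzymes Ldha (675 TPM), Tpi1 (568 TPM) and Aldoa (401 TPM) stood far above it. Transcripts of 41 other genes repeat parts of its sequence at 98% identity or more, covering 88.0% of it, although Eno1, repeated over 85.6%, stood at 371 TPM. The mitochondrial genes fell into 2 groups. Of 13 coding genes, mt-Co2, mt-Co3, mt-Atp6, mt-Nd3 and mt-Nd4l are repeated over at least 90% of their length by a nuclear gene model and stood at 17.7 to 249 TPM. Of the other 8, 7 stood between 2888 TPM (mt-Nd4) and 14745 TPM (mt-Co1), and mt-Atp8, the shortest, at 17.6 TPM.

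Coding genes largely covered by other exons were low. Coding genes whose exons did not overlap those of any other gene had a median of 10.7 TPM, and 72.4% reached 1 TPM in every library. Up to 25% cover the median was 13.5 TPM, from 50% to 75% it was 1.505 TPM, and above 75% it was 0.189 TPM with 22.6% at 1 TPM. Tagln, a smooth muscle gene covered over 67.9%, stood at 1.18 TPM, where Acta2 of the same cells, not covered, stood at 117 TPM. Igf2, covered over 64.5%, stood at 94.3 ± 10.1 TPM beside H19 at 6842 TPM, its neighbour in the same imprinted domain. Dlk1, which is not overlapped in GENCODE M21, had 2, 1, 0 and 0 counts, and its imprinted partner Meg3 stood at 0.45 TPM. The sources used here do not say how reads over 2 genes were counted.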

How the data were processed

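Polyadenylated RNA of whole E15.5 pancreas was sequenced in 4 WT and 3 cKO embryos, and the WT columns were used. The authors deposited raw counts per gene. Per the submitters' processing notes, the tools were HISAT2, StringTie and featureCounts on the build mm39, and their versions and settings are not stated there. Of 27138 features, 315 carry a running number and no gene name (0.203% to 0.216% of counts). They were kept in library sizes.

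Counts were scaled with TMM (edgeR 4.0.16, R 4.3.3), with DESeq2 1.42.0 size factors and library totals as alternatives. TPM used union exon lengths from GENCODE M21 on GRCm38 for 26780 genes. That is not the build of the counts, so a changed gene model shifts a TPM. Copies were matched with blastn 2.17.0. Promoters came from RefSeq, build GRCm38.p6. A gene was widely spread at 2-fold or more between the highest and lowest library and a mean of at least 10 CPM. SD values of log2 CPM used a prior count of 2. The floor of 3 counts, the limit that a count of 0 allows, equals 0.163 to 0.211 CPM. This covers counting error only, since molecules carried no identifiers. The script for dispersion was tested on simulated data.

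Members and 33 gene lists (705 of 716 entries matched) were chosen with earlier results of these data known, and 3 more lists were added after the values were seen. Genes were named by rule: the 30 leading genes and the 30 leading factors by TPM, the 30 most spread and 10 least spread genes, the 3 highest and 2 most spread of each list, and set markers. Other genes named were chosen after their values were seen, among them the low ends of lists, Hox genes, near copies and overlapped genes. Results for some genes that the rule names are not reported here.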

Additional observations from a re-analysis of the deposited data

Results flagged for a closer look

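In 41 of 190 genes named in the text with a mean of at least 1 CPM, and in 5 of 36 gene list shares, 1 library lay apart from the other 3 by more than Dixon's critical value for groups of 4. Chance gives this in about 1 in 20 groups of 4, but many of the genes were named for their spread. The list shares include 3 lists added after the values were seen, the adrenal cortex list among them. That of the sex list was set by the 1 XX embryo. Neither number is therefore a count to set against chance. Replicate 4 was the library apart in 26 of the 41 genes, replicate 3 in 8, replicate 2 in 6 and replicate 1 in 1.

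Digestive enzymes and granule proteins took 8.99% of counts in replicate 4. On the CPM scale its values there were 35316 for Ctrb1, 26184 for Pnliprp1, 8790 for Cpa1, 4006 for Clps and 2761 for Cel. The elastases stood at 1864 (Cela3b), 1673 (Cela2a), 1328 (Cela1) and 4.64 CPM (Cela3a). Amy2b stood at 1268 CPM, Prss1 at 1091 CPM, Prss2 at 521.5 CPM and Try4 at 98.5 CPM, with their counts uncertain between copies. The granule genes Sycn, Zg16 and Gp2 stood at 140, 32.4 and 8.44 CPM. Both insulin genes lay apart in the same library, Ins2 at 776 CPM and Ins1 at 368 CPM. So did the liver genes Afp (452 CPM), Alb (353 CPM), Apoa1 (31.7 CPM) and Ahsg (31.4 CPM), the red cell gene Slc4a1 (80.1 CPM), C1qa (143 CPM) and Tff2 of stomach (11.6 CPM). Tcf3 was low there at 223 CPM.

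In replicate 3 the adrenal cortex list took 0.058% of counts, with Cyp21a1 at 56.2, Hsd3b1 at 55.0, Cyp11a1 at 47.0 and Cyp11b1 at 38.8 CPM, and Adh1 at 32.1 and Pnmt at 3.97 CPM. Collagens took 1.78% of counts in replicate 3, and Eno1b stood at 107 CPM and its pseudogene copy Gm4735 at 94.4 CPM.

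In replicate 2 the sex list took 0.121% of counts, with Xist at 1212 CPM and Ddx3y and Uty at 0. Smooth muscle genes took 0.0229% there. Vim was low at 543 CPM, whereas Rbpj was high at 80.8 CPM and Barx1 at 35.3 CPM. In replicate 1, Meg3 was high at 4.95 CPM.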

How the results depend on the processing

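No paired analysis was possible because the WT libraries were compared with no other group. The alternatives set out for these results were run, and 2 more (TPM without genes under 200 bases, and counts summed with pseudogene copies) were chosen after seeing the data. The number of genes and of transcription factors at 1 TPM in every library stayed within 1.5 times under each alternative run. With CPM in place of TPM, 1136 genes held 50% of the library, and the share of transcription factors was 3.756% of counts. On the TPM scale mitochondrial genes took 4.771% and digestive enzymes 12.94%. The common biological coefficient of variation was 0.2083 with no filter on low counts, and 0.1627 (without replicate 2) to 0.1973 (without replicate 3) with 1 library left out. The number of widely spread genes was 2001 from a minimum of 1 CPM, 1410 at 1.5-fold, 204 at 3-fold, and 241 (without replicate 2) to 363 (without replicate 3) with 1 library left out. The median correlation between libraries was 0.982 (Spearman), 0.9717 for genes at 10 CPM or more and 0.9721 as Pearson's r. The cause of these shifts was not tested beyond the change of unit, filter or threshold itself. With the length of the longest transcript in place of all exons, the mean TPM of 75 of 200 named genes moved by 1 SD or more. That of 12 named genes moved by over 1.5 times, among them Cela1 (1765 TPM), Eno1 (778 TPM), Col1a2 and Rbpj. No scaling moved the median of all genes by over 0.066 on the log2 scale. With 4 embryos, 1 of them XX, the spread of a single gene is itself imprecise.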

Other observations

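Imprinted genes, expressed from the allele of 1 parent and known for control of fetal growth, had a median of 70.6 TPM over 24 members, from 0.02 TPM for Dlk1 to 6842 TPM for H19. The value of Dlk1 rests on 2, 1, 0 and 0 counts, and whether reads of it were lost in counting was not tested. Below H19 stood the cell cycle inhibitor Cdkn1c (757 TPM), Mest (714 TPM), the growth factor receptor adaptor Grb10 (353 TPM) and Peg10 (214 TPM). Of 19 members at 10 CPM or more, 1 was widely spread (5.26%), close to the 4.06% of all genes. Of 30 collagens 0 were past 2-fold (2 with library totals), a count near that background, and their median SD of log2 CPM was 0.16 against 0.13 for all genes. Replicate 3 was the highest in 19 of the 30, against 19.3% of all genes. Fibrillar Col1a1, Col3a1 and Col1a2 (546 TPM) led them, followed by Col6a1 (395 TPM) and the basement membrane chain Col4a1 (333 TPM).

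Further genes named by their spread did not belong to a list. Rnf181, a ubiquitin ligase, stood at 2.45, 2.03, 19.4 and 30.5 CPM, low in replicates 1 and 2 and high in replicates 3 and 4. Adh1, an alcohol dehydrogenase, stood at 4.29, 1.67, 32.1 and 3.52 CPM, high in replicate 3 as the steroid enzymes were. Of the 315 features without a gene name, 43 had a mean of 10 CPM or more. The highest, number 88, stood at 248, 300.2, 179.9 and 249.8 CPM.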
